A study of Mus musculus with 22 samples.

Results

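The Spata (spermatogenesis associated) and Tex (testis expressed) genes were followed in whole testes of WT mice and of mice that lack functional MLX, a transcription factor of the extended MYC network. The members were all rows of the testes RNA-seq count table whose symbol begins with Spata or Tex followed by a digit. This rule found 56 of 17931 gene symbols, 27 Spata and 29 Tex genes, and all 56 were among the 14640 genes with enough counts to be tested. RNA came from whole testes of males aged 7 months, 3 WT and 3 KO, labelled as paired biological replicates. The paper describes the pairs as littermates. The WT males were fertile breeders. The KO males (Mlx-/-) carried a constitutive deletion, in all tissues, of the Mlx exons that encode the dimerization and DNA-binding region. The allele was made in 129S4 ES cells, and the Meox2-Cre that deleted the exons was later crossed out.

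The names Spata and Tex record where a transcript was found and not a shared ancestry. Most of the encoded proteins are unrelated to each other. Some act in meiosis or in the control of transposons, many build the acrosome, the head-tail junction, the mitochondrial sheath or the axoneme of the sperm, and some are used in most tissues. MLX binds E-box sequences as a heterodimer with MondoA, ChREBP or some MXD proteins.

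The 6 libraries held between 16674678 and 19742726 counts. Counts assigned to the Mlx gene overlapped between the genotypes (96 to 128 in WT, 94 to 109 in KO), and since the table gives 1 count for the whole gene, of which exons remain in the KO allele, they do not check the labels. The genotypes below are therefore those of the labels. KO1 stood apart from KO2 and KO3. The chi-square of its counts against either was 8.25 per degree of freedom, against 2.74 between KO2 and KO3. Of all genes tested, 3015 were lower and 3634 higher in KO testes at an adjusted p below 0.05 in edgeR's quasi-likelihood test, and with library size alone in place of TMM scaling these were 1268 and 5343.

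Transcripts of the Spata and Tex genes made up a smaller share of the RNA in KO than in WT testes. Together they took 1.37%, 1.37% and 1.35% of the counts of the WT libraries and 1.28%, 1.22% and 1.21% of those of the KO libraries. All 3 KO libraries lay below all 3 WT libraries, and KO1 lay nearest to WT. In edgeR's test, 34 of the 56 members were lower in KO, 1 was higher (Spata2) and 21 did not pass, where 20.6% of all genes tested were lower and 24.8% higher. Values of the KO libraries lay wholly below those of the WT libraries for 40 members, against 25.9% of all genes, and wholly above them for 1 member, against 30.3% of all genes. The changes were moderate. The median log2 fold change of KO over WT was -0.23 over the members and 0.03 over all genes, and the called decreases ran from -0.69 (Tex13a) to -0.14 (Tex36), with a median of -0.31. Of the 56 members 42 fell in all 3 pairs, against 4641 of the 14640 genes tested. All 34 lower members were among the 42. For the 33 of them whose groups did not overlap, this follows from the lack of overlap. For 30 of the 34 KO1 was the highest of the 3 KO libraries. Without KO1, 35 members were lower, and the median was -0.27. In whole tissue, fewer cells of a type and less RNA per cell cannot be told apart.

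With library size alone in place of TMM the median of all genes moved to 0.16 and that of the members to -0.09. Since this scaling moves every gene by nearly the same amount, the distance between the medians must stay nearly the same (-0.26 with either). With it 23 members were lower and 3 higher, where 1268 and 5343 of the 14640 genes tested were. Among the members called, 0 changed direction with library size alone. Of the 21 not called, 14 did. Such a shift can turn only values close below 0, so these counts do not show how firm the calls are. With TMM, 21 of the 27 Spata genes were lower, with a median of -0.27. Of the 29 Tex genes 13 were, with a median of -0.14. Of all genes tested, 20.6% were lower. The difference between the Spata and Tex shares was not tested.

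**Figure D1:**
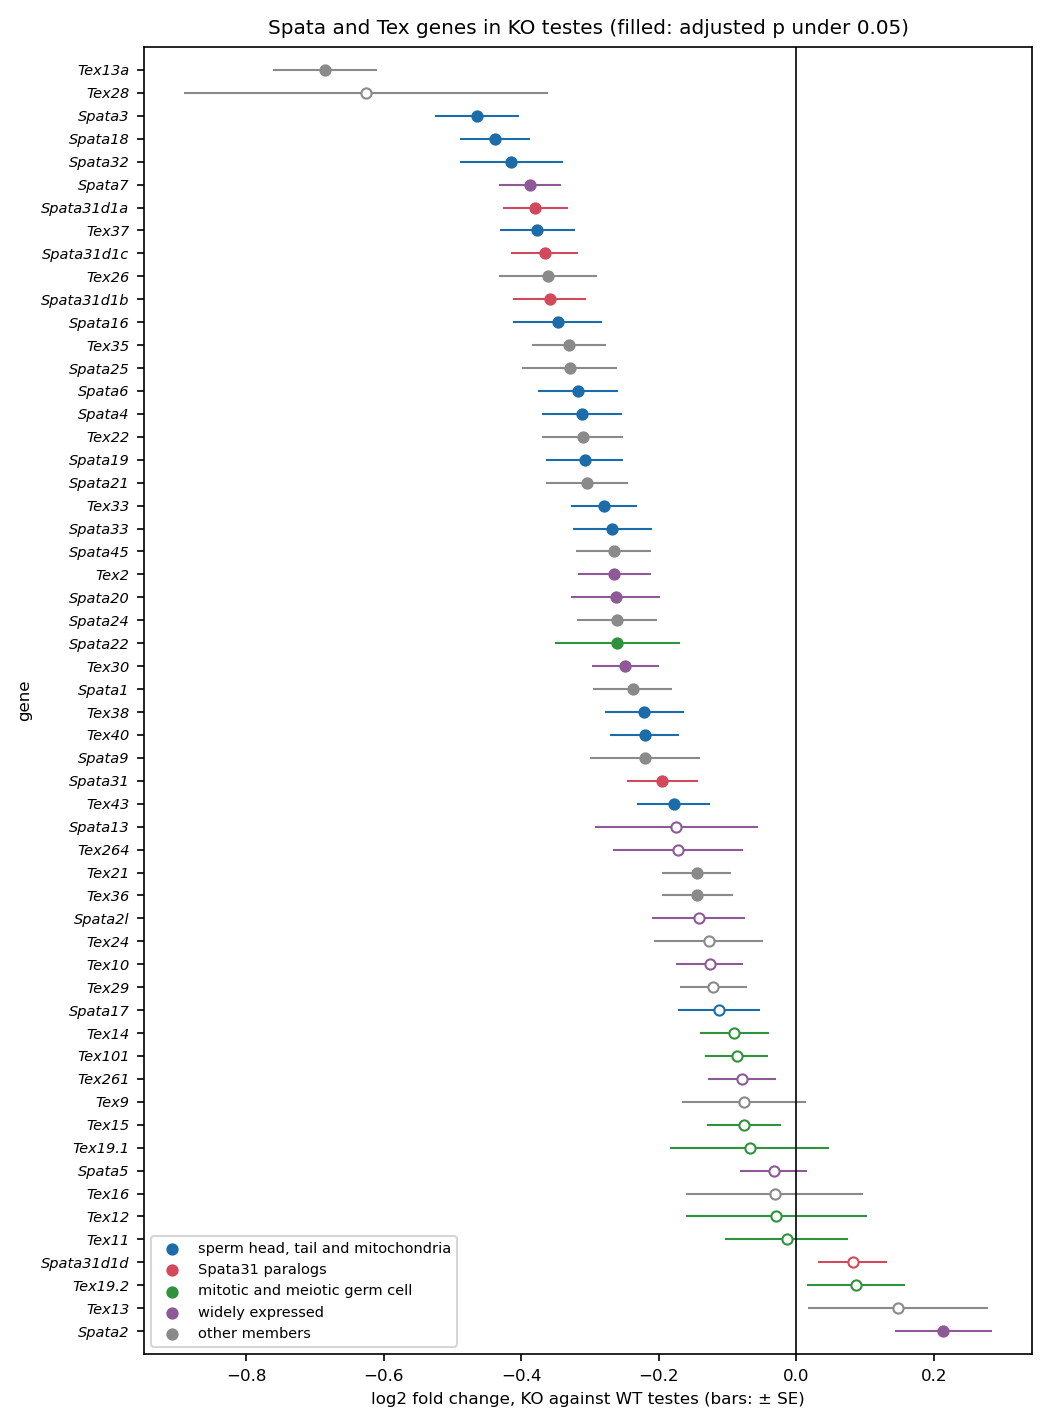
Log2 fold change of KO over WT testes (x axis, bars ± SE from edgeR, n = 3 a group) for each of the 56 Spata and Tex genes (y axis), coloured by role. Filled points passed an adjusted p of 0.05. Most points lie left of 0, from Tex13a at -0.69 to Spata2 at 0.21. Library size alone moves all points right by nearly the same amount, and the 14 closest below 0, all open, change side.

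Markers of the cell types of the testis moved in both directions, lower with the members for spermatocytes and spermatids only. All 11 tested markers of elongating spermatids were lower in KO testes, with a median log2 fold change of -0.55, as were 6 of 10 markers of spermatocytes (-0.19) and 6 of 7 of round spermatids (-0.20). All 8 markers of Sertoli cells (0.78), 8 of Leydig cells (1.16) and 9 of macrophages (1.28) were higher. Of 9 markers of spermatogonia 2 were higher and 1 lower (0.17), of 4 of endothelium 2 were higher (0.69) and of 4 of peritubular myoid cells 3 were higher (0.44). Of all genes tested, 20.6% were lower and 24.8% higher. With library size alone, 1 of 10 spermatocyte markers (median -0.05) and 2 of 7 round spermatid markers (-0.06) were lower, and 3 markers of spermatogonia, 3 of endothelium and 4 of peritubular myoid cells were higher, while the counts for elongating spermatids, Sertoli cells, Leydig cells and macrophages were as above. Summed CPM of the elongating spermatid markers was 23400 to 24320 in WT and 14050 to 17030 in KO testes, that of the round spermatid markers 1543 to 1584 and 1309 to 1398, and that of the spermatocyte markers 1677 to 1726 and 1467 to 1537. Those of the somatic lists were 878.5 to 926.5 and 1352 to 1635 for Sertoli cells, 864.9 to 885 and 1859 to 2446 for Leydig cells, and 86.9 to 92.1 and 183 to 189.4 for macrophages. For spermatogonia they were 142.9 to 148.5 and 159.1 to 170.4, for endothelium 12.7 to 15.8 and 26.1 to 30.9, and for peritubular myoid cells 64.6 to 76.9 and 96.8 to 104.2. The sums of all 9 lists were apart between genotypes. For spermatogonia this separation came from Kit (19.0 to 25.05 CPM in WT, 32.3 to 45.7 in KO), without which the sums overlap. Of the 9 markers of spermatogonia, 6 were not called. Of the 70 markers tested, 0 had a count of 0 in any library, so that germ, Sertoli and Leydig cell markers of the labelled tissue were all present. The part of these cell types in the values of the members was not tested.

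**Figure D2:**
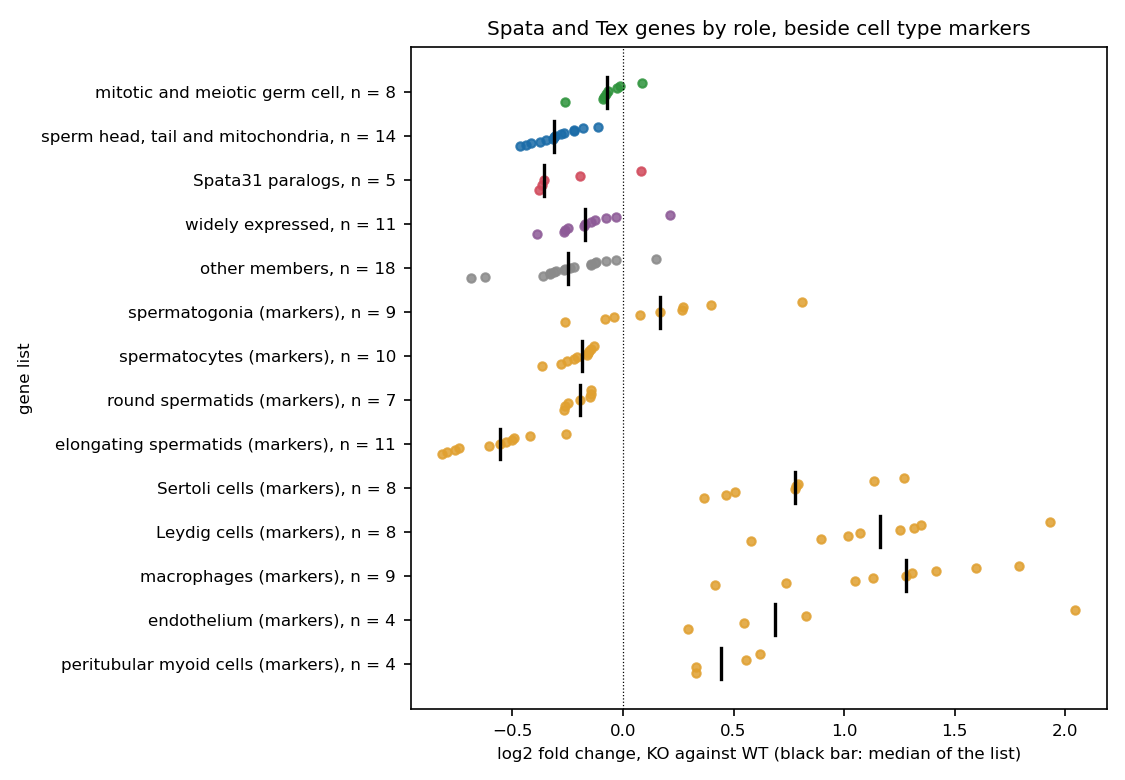
Log2 fold change of KO over WT (x axis) of each member, grouped by role, and of each cell type marker, grouped by cell type (y axis). Each point is a gene and the black bar is the median of its list, -0.31 for members of sperm structures, -0.07 for those of mitotic and meiotic germ cells (0.07 with library size alone), -0.55 for markers of elongating spermatids and 1.16 for those of Leydig cells.

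Of the 8 members grouped under mitotic and meiotic germ cells, 1 was called lower and 7 were not called, where 20.6% of all genes tested were lower. Their median log2 fold change, -0.07 with TMM and 0.07 with library size alone, was the nearest to 0 among the groups by role with TMM. Spata22 binds MEIOB at sites of meiotic recombination. Its level was 17.2, 14.9 and 15.96 CPM (read counts scaled to a common library size with TMM) in WT1 to WT3 and 14.1, 13.4 and 12.8 CPM in KO1 to KO3, a log2 fold change of -0.26 (SE 0.091, adjusted p = 0.036). The groups did not overlap, but 79.7% of the 50-base windows of Spata22 exons also occur in the readthrough gene Gm49340. The call was lost with library size alone (log2 fold change -0.12, adjusted p = 0.31), in DESeq2 (0.075, and 0.18 with the replicate block) and when KO2, KO3, WT1 or WT3 was left out (adjusted p from 0.072 to 0.14).

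Tex14, which keeps the intercellular bridges between germ cells open, was measured at 95.7, 94.2 and 92.0 CPM in WT and 91.7, 89.4 and 83.8 CPM in KO testes (log2 fold change -0.09, adjusted p = 0.17). Tex101, a surface protein of germ cells needed for sperm to enter the oviduct, was at 158, 160 and 154 CPM in WT and 150, 143 and 151 CPM in KO testes (-0.09, adjusted p = 0.15). In both genes the KO libraries lay just below the WT libraries, and in both the direction turned with library size alone (0.05 each). Tex15, which silences transposons in male germ cells, was at 145 to 161 CPM in WT and 142 to 151 in KO testes (-0.08), Tex12 of the synaptonemal complex at 8.90 to 11.3 and 8.30 to 10.3 CPM (-0.03), and the X-linked meiotic gene Tex11 at 18.7 ± 1.83 and 18.55 ± 0.71 CPM (mean ± SD, n = 3; -0.01). These 3 overlapped between genotypes, and each turned positive with library size alone. The neighbours Tex19.1 and Tex19.2 on chromosome 11, paralogs that restrain retrotransposons, also overlapped, with log2 fold changes of -0.07 (SE 0.12) and 0.09 (SE 0.071). The first turned positive with library size alone, and the second was called higher there (0.23, adjusted p = 0.030).

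The members grouped under sperm head, tail and mitochondria were lower nearly throughout. The group includes a few genes, such as Spata3, whose part in these structures is little known. Of 14 genes, 13 passed the test, where 20.6% of all genes tested were lower. In all 14 each KO library lay below each WT library, against 25.9% of all genes. Their median log2 fold change was -0.31 with TMM and -0.17 with library size alone, with which 10 were called. Their levels in WT testes were also high, with a median of 171 CPM per kb of exon against 13.7 for the mitotic and meiotic members.

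Spata3 was at 404, 414 and 426 CPM in WT and 324, 302 and 275 CPM in KO testes (log2 fold change -0.46, SE 0.061, adjusted p = 0.00018). Spata18 encodes a protein of mitochondrial quality control. It was at 910, 943 and 933 CPM in WT and 722, 673 and 659 CPM in KO testes (-0.44, SE 0.051, adjusted p = 8.2e-05). Spata32 was at 99.3, 105 and 104 CPM in WT and 87.5, 74.4 and 69.7 CPM in KO testes (-0.41, SE 0.075, adjusted p = 0.0011). In all 3 genes the gap between the lowest WT and the highest KO library was wider than the spread within WT, and KO3 was the lowest library.

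Genes of the head and of its junction to the tail fell as well. Spata16, required to form the acrosome from Golgi vesicles, was at 373, 374 and 357 CPM in WT and 321, 271 and 276 CPM in KO testes (-0.35, SE 0.064, adjusted p = 0.0014). Spata6, required for the connecting piece that joins head and tail, was at 1192, 1191 and 1163 CPM in WT and 1030, 904 and 911 CPM in KO testes (-0.32, SE 0.058, adjusted p = 0.0013). KO1 lay between WT and the other KO libraries in both. Tex38, which with the palmitoyltransferase ZDHHC19 acts in spermatid head shaping, was at 42.7 to 44.7 CPM in WT and 36.2 to 38.1 in KO testes (-0.22, adjusted p = 0.0087), and its call was lost in DESeq2 with the replicate block (adjusted p = 0.060) and with library size alone (0.27).

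Among genes of the midpiece and tail, Spata19, needed for the mitochondrial sheath, was at 321 to 346 CPM in WT and 254 to 285 in KO testes (-0.31, SE 0.057). Spata33, which anchors calcineurin in the sperm, was at 255 to 269 and 206 to 236 CPM (-0.27, SE 0.057). Tex40, now named Catsperz, encodes a subunit of the calcium channel CatSper and was at 283 to 292 and 237 to 261 CPM (-0.22, SE 0.050), a call lost with library size alone (adjusted p = 0.097). Of its annotated exon bases, 46.5% overlap Kcnk4, and its reads cannot be told from those of that gene where strand is not stated to be used. Tex37, Tex33 and Tex43, which encode small proteins of axonemal microtubules, had log2 fold changes of -0.38, -0.28 and -0.18, all called. The call of Tex43 was lost in DESeq2 with the replicate block (adjusted p = 0.078), with library size alone (0.56) and without KO2, WT2 or WT3 (0.057 to 0.082). Spata4 had the highest level of all members per length, 914 CPM per kb of exon in WT testes, and a log2 fold change of -0.31. Spata17, a calmodulin-binding protein of the flagellum, was the exception among the 14. It was at 82.3, 82.3 and 91.4 CPM in WT and 81.2, 81.5 and 74.2 CPM in KO testes, 2 KO libraries close to 2 WT libraries (-0.11, adjusted p = 0.15, and 0.03 with library size alone).

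**Figure D3:**
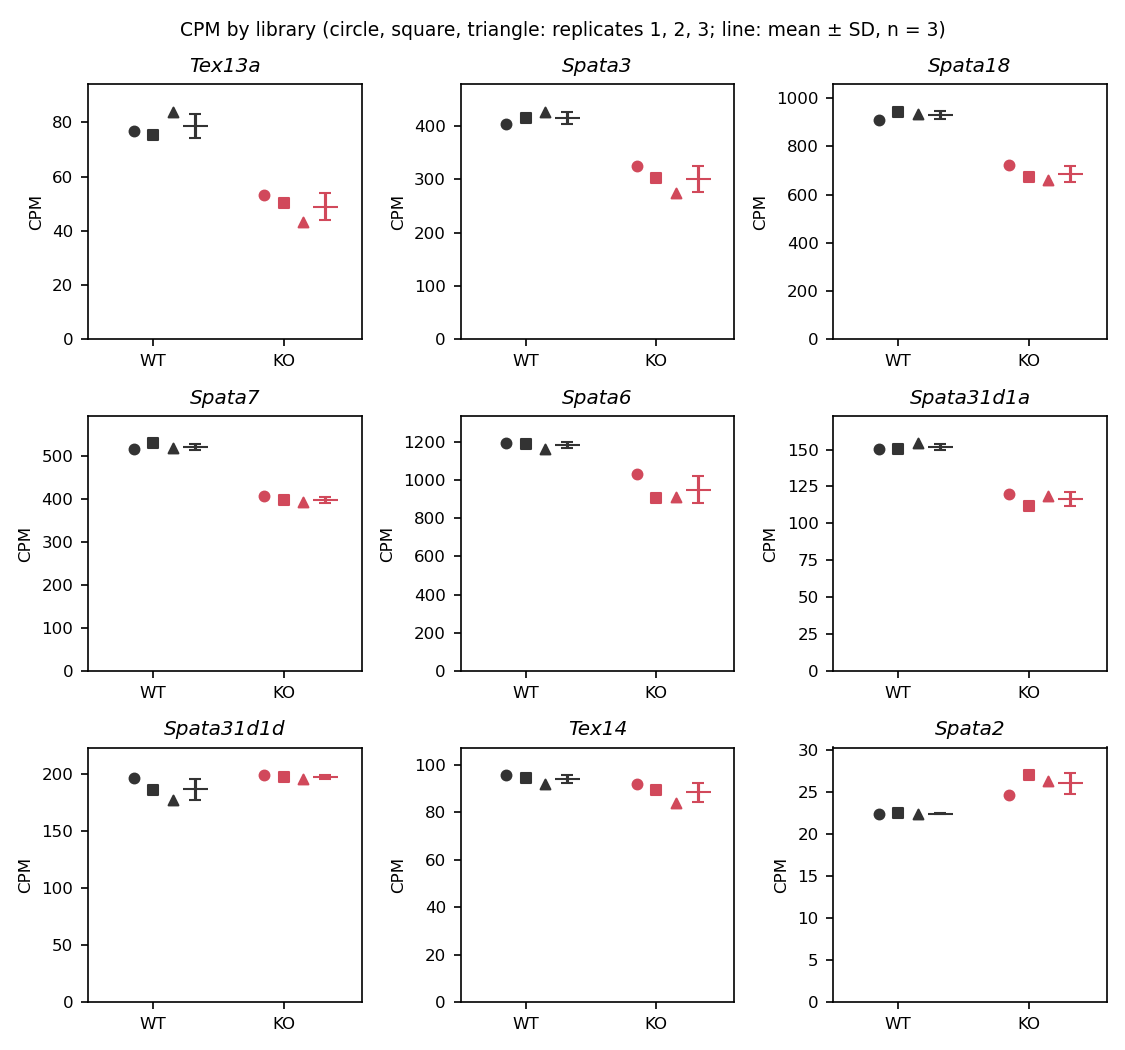
CPM (y axis, from 0) of 9 members in the 3 WT and 3 KO libraries, with circles, squares and triangles for replicates 1, 2 and 3 and the mean ± SD beside them. KO lies below WT without overlap for Tex13a, Spata3, Spata18, Spata7, Spata6 and Spata31d1a, narrowly so for Tex14 (which turns with library size alone), above it for Spata2 (22.4 to 22.5 in WT, 24.6 to 27.0 in KO), and overlaps for Spata31d1d.

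The Spata31 genes, a family of spermatid proteins, are paralogs in the strict sense, and 1 of them did not follow the others. On chromosome 13, Spata31d1a (chr13:59700083-59706587, minus strand), Spata31d1b (chr13:59712284-59719289, plus strand) and Spata31d1d (chr13:59725925-59731752, minus strand) lie close together, 5.7 and 6.6 kb apart, while Spata31 (chr13:64917406-64923195) and Spata31d1c (chr13:65033058-65038004) lie in a separate cluster on the same chromosome. All coordinates are those of GRCm38 (mm10).

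Spata31d1a was at 150, 150 and 154 CPM in WT and 120, 111 and 118 CPM in KO testes (log2 fold change -0.38, SE 0.048, adjusted p = 0.00013). Spata31d1b was at 269, 284 and 273 CPM in WT and 229, 206 and 209 CPM in KO testes (-0.36, SE 0.053, adjusted p = 0.00036). Spata31d1c, of the other cluster, was at 98.7, 97.7 and 98.9 CPM in WT and 78.1, 78.3 and 72.6 CPM in KO testes (-0.37, SE 0.049, adjusted p = 0.00019). These 3 fell by nearly the same factor, and no KO library reached a WT library. Spata31 was at 303, 296 and 277 CPM in WT and 250, 251 and 264 CPM in KO testes (-0.20, SE 0.051, adjusted p = 0.0097), and its call was lost with library size alone (adjusted p = 0.39).

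Spata31d1d, 6.6 kb from Spata31d1b, was at 197, 186 and 178 CPM in WT and 200, 198 and 196 CPM in KO testes (0.08, SE 0.050, adjusted p = 0.20, and called higher with library size alone at 0.22, adjusted p = 0.0035). Its KO libraries overlapped with the range of WT. The contrast with its paralogs does not depend on how libraries are scaled, since it can be read as a ratio of counts within each library. Counts of Spata31d1a over those of Spata31d1d were 0.765, 0.807 and 0.868 in WT and 0.601, 0.563 and 0.604 in KO testes (log2 difference -0.46, SE 0.062). The corresponding differences were -0.44 (SE 0.067) for Spata31d1b, -0.45 (SE 0.052) for Spata31d1c and -0.28 (SE 0.037) for Spata31, and in all 4 ratios the genotypes did not overlap. Among Spata31d1a, Spata31d1b and Spata31d1c the 3 ratios overlapped between genotypes, with log2 differences from -0.02 to 0.01. The ratios were computed after the values of Spata31d1d had been seen, and are given as a description. An exact permutation test gave p = 0.1 for each of the 4 ratios over Spata31d1d. With 3 libraries a group that is the smallest p it can give, so it could not pass 0.05. Of the 50-base windows of exons, 19.8% of those of Spata31d1a recur in other genes, Spata31d1b among them, and 24.9% of those of Spata31d1b recur in Spata31d1a, so that reads there cannot be assigned to 1 gene, while 2.5% of those of Spata31d1d and 0% of those of Spata31d1c occur in another gene.

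**Figure D4:**
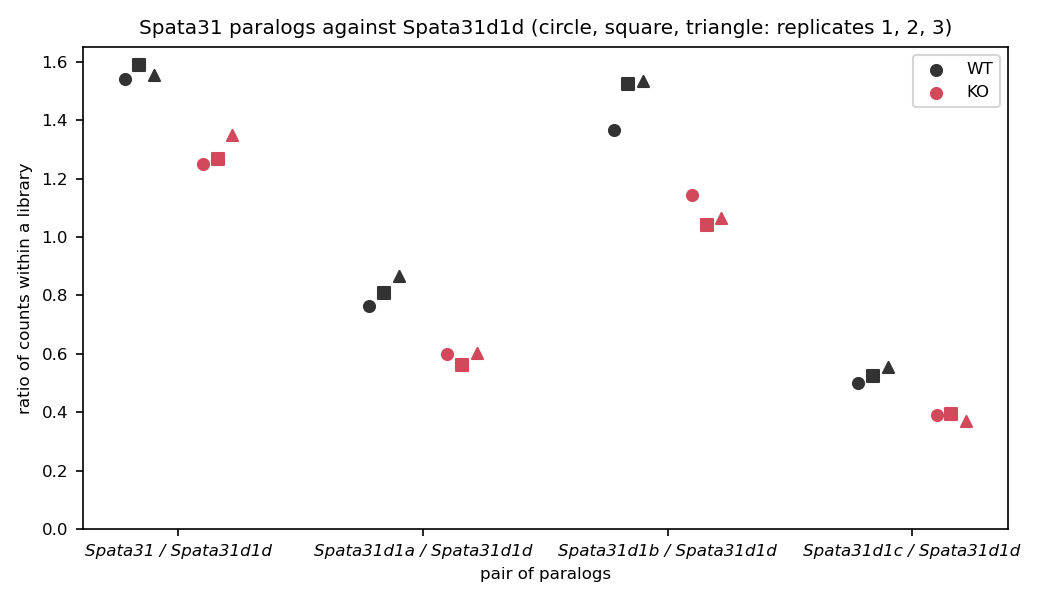
Ratio of counts of each Spata31 paralog to those of Spata31d1d within a library (y axis, from 0), for 4 pairs of genes (x axis), with WT in black, KO in red and circles, squares and triangles for replicates 1, 2 and 3. In each pair the 3 KO libraries lie below the 3 WT libraries, such as 0.563 to 0.604 against 0.765 to 0.868 for Spata31d1a.

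The members grouped as widely expressed were mixed. Their expression in other tissues was not measured here. Of 11 genes, 4 were lower, 1 was higher and 6 were not called, where 20.6% of all genes tested were lower and 24.8% higher. Their median log2 fold change was -0.17 with TMM and -0.03 with library size alone. Spata7, a protein of the photoreceptor connecting cilium whose loss causes retinal degeneration, was at 517, 529 and 517 CPM in WT and 406, 396 and 392 CPM in KO testes (-0.39, SE 0.045, adjusted p = 7.6e-05). It varied little within either genotype and had the lowest SE of all members. Tex2, which acts in lipid transfer at contacts of the endoplasmic reticulum, was at 967 to 1017 and 798 to 876 CPM (-0.27, SE 0.053). Spata20, a thioredoxin-like protein, was at 1514 to 1646 and 1222 to 1433 CPM (-0.26, SE 0.065), and Tex30 at 134 to 141 and 112 to 119 CPM (-0.25, SE 0.048). The call of Tex30 was lost with library size alone (adjusted p = 0.062), and those of the other 3 were kept in all 14 alternatives tried. The 4 lower genes lay at 51.6 to 548.5 CPM per kb of exon in WT testes, the rest of the group at 1.21 to 37.4.

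Spata2, the adaptor that brings the deubiquitinase CYLD to the linear ubiquitin ligase LUBAC, was the only member called higher. It was at 22.4, 22.5 and 22.4 CPM in WT and 24.6, 27.0 and 26.3 CPM in KO testes (0.21, SE 0.071, adjusted p = 0.028). The groups did not overlap, but the call was lost in DESeq2 (adjusted p = 0.18, and 0.33 with the replicate block) and when any library other than KO1 was left out (0.073 to 0.094). Of its partners, Cyld, Rnf31, Rbck1 and Sharpin had log2 fold changes of 0.06, 0.04, 0.08 and -0.07, and 0 of these 4 passed the test. Rbck1 was called higher with library size alone (0.22, adjusted p = 0.026). Spata2l, the paralog of Spata2, was at 32.4 to 34.5 CPM in WT and 28.3 to 31.9 in KO testes (-0.14, adjusted p = 0.11).

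Tex10, part of the PELP1 complex of ribosome maturation, was at 163 to 165 CPM in WT and 145 to 158 in KO testes (-0.13, adjusted p = 0.055). It was called lower in DESeq2 (adjusted p = 0.037, but 0.090 with the replicate block), with DESeq2 size factors in edgeR (0.032) and without KO1 (0.0051), and turned to 0.01 with library size alone. Tex264, a receptor of ER-phagy, had a log2 fold change of -0.17 (adjusted p = 0.16, and 0.016 without WT1). Spata13 was at -0.17, Tex261 at -0.08 and the ATPase of ribosome biogenesis Spata5 at -0.03. None of these 3 passed the test, and the last 2 turned positive with library size alone.

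The remaining 18 members were in none of these groups, and most are little characterized. Of these, 12 were lower and 6 were not called, where 20.6% of all genes tested were lower. Their median log2 fold change was -0.25, and with library size alone 7 were lower (median -0.11). The largest decrease of the whole set was here. Tex13a, an X-linked germ cell gene, was at 76.9, 75.5 and 83.9 CPM in WT and 53.3, 50.2 and 43.4 CPM in KO testes (-0.69, SE 0.075, adjusted p = 5.7e-05). The highest KO library was 22.1 CPM below the lowest WT library, against a spread of 8.43 CPM within WT. Its neighbour in family, the X-linked Tex13 (now Tex13b), was at 5.60 to 6.22 CPM in WT and 5.78 to 7.19 in KO testes (0.15, SE 0.13, adjusted p = 0.38). Of the 5 X-linked members, Tex13a was the only one called lower. Tex28 had the next lowest value, -0.63, but at 1.41 to 2.11 CPM in WT and 0.996 to 1.48 CPM in KO testes it had the highest SE (0.26, adjusted p = 0.074, and 0.048 without WT3), and Tex16 was at -0.03 (0.11 with library size alone).

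The other called members of this group were Tex26 (-0.36), Tex35 (-0.33), Spata25 (-0.33), Tex22 (-0.31), Spata21 (-0.30), Spata45 (-0.27), Spata24 (-0.26), Spata1 (-0.24), Spata9 (-0.22), Tex21 (-0.15) and Tex36 (-0.14), as log2 fold changes. The last 3 were the least firm. They lost their call with library size alone and without KO2, KO3, WT1 or WT2 (adjusted p from 0.067 to 0.18), and with the replicate block Tex21 and Tex36 lost it in edgeR (0.057 each) and Tex36 in DESeq2 (0.085). Spata1 (adjusted p = 0.091) and Spata45 (0.056) lost it with library size alone only. Spata9 was the only member called lower whose libraries overlapped between genotypes, at 78.0 to 99.3 CPM in WT and 72.9 to 81.45 in KO testes. Tex29 (-0.12), Tex24 (-0.13) and Tex9 (-0.08) did not pass, though Tex29 did with DESeq2 size factors in edgeR (adjusted p = 0.028), and all 3 turned to between 0.01 and 0.06 with library size alone. Annotated exons of Tex9 overlap those of Mns1 over 32.3% of their length, and 32.7% of windows of Tex24 recur in other genes. Over the 45 members with less than 10% of exon bases or windows shared with another gene, 26 were lower and the median was -0.22. Of all genes tested, 20.6% were lower.

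Genes whose proteins work with a member were read beside them. Of 37 such partners tested, 23 were lower and 1 was higher, where 20.6% of all genes tested were lower and 24.8% higher. Their median log2 fold change was -0.21. With library size alone 13 were lower and 2 higher, where 1268 and 5343 of all 14640 genes were. All 9 partners of Tex40 in the CatSper channel were lower, from Catsper2 (391 CPM on average in WT, 298 in KO, log2 fold change -0.39) to Catsperd (-0.16), but with library size alone 3 of the 9 were, Catsper1, Catsper2 and Catsperb, and the call of Catsperd was also lost in DESeq2 with the replicate block (adjusted p = 0.058). All 4 genes of head-tail coupling, beside Spata6, were lower, with Odf1 at -0.44, Pmfbp1 at -0.39, Hook1 at -0.25 and Sun5 at -0.25, and 3 of the 4, without Sun5, were with library size alone. So were both subunits of the sperm calcineurin that Spata33 anchors, Ppp3r2 at -0.41 and Ppp3cc at -0.19 (not called with library size alone), and the partner of Tex38, Zdhhc19, at -0.37. Of 4 acrosome genes beside Spata16, Dpy19l2 (-0.31) and Zpbp (-0.29) were lower, and Pick1 (-0.09) and Gopc (-0.02) were not called.

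For the meiotic members the partners differed more among themselves. Beside Tex12, the synaptonemal complex genes Syce2 (-0.37) and Syce1 (-0.30) were lower, while Sycp1 (-0.13, adjusted p = 0.084) and Syce3 (-0.10) were not called. Rpa1, which coats single-stranded DNA, was lower at -0.46, and Meiob, the direct partner of Spata22, had a log2 fold change of 0.00 (SE 0.13). Cep55 of the bridge was lower at -0.21, a call lost in DESeq2 with the replicate block (adjusted p = 0.094) and with library size alone (0.46), and Kif23 was at -0.05. Among partners of Tex10, Pelp1 was lower at -0.23 (adjusted p = 0.091 with library size alone) and Las1l was the only partner called higher, at 11.1 to 14.2 CPM in WT and 15.4 to 18.9 in KO testes (0.44, SE 0.11, adjusted p = 0.0083). That call was lost in DESeq2 with the replicate block (adjusted p = 0.057). Wdr18 (-0.11) and Senp3 (-0.05) were not called, nor was Cinp (0.02), the partner of Spata5.

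Members with a higher level in WT testes tended to have lower log2 fold changes. Across the 56 genes the level per kb of exon in WT and the log2 fold change correlated at a Spearman's rho of -0.53 and a Pearson's r of -0.42, as a description, since genes are not independent and both values use the WT libraries. Across 14620 genes the rho was -0.49. The members were among the abundant transcripts of the testis. Of the 56, 52 lay above the median level of all genes and 32 in the top 10%, and their median percentile was 91.5. Tex13a and Spata31d1d departed from the relation in opposite directions, at 59.8 and 48.8 CPM per kb.

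**Figure D5:**
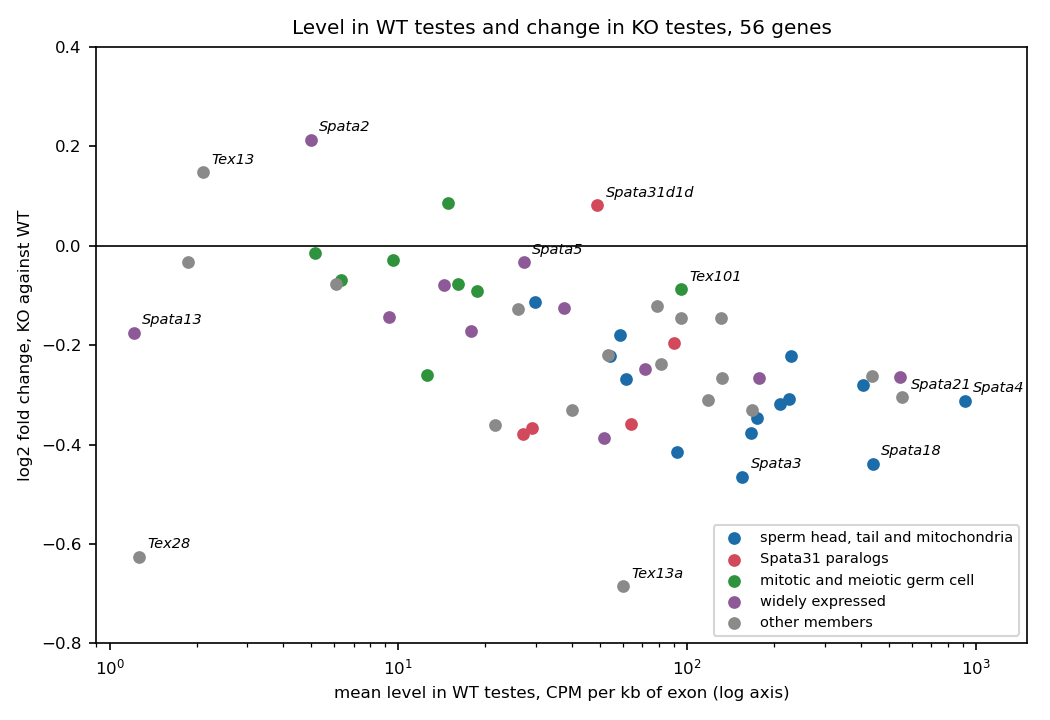
Mean level in WT testes (x axis, CPM per kb of exon, log axis) and log2 fold change of KO over WT (y axis) of the 56 members, coloured by role. Members from 100 CPM per kb upward all lie below 0, down to -0.46 for Spata3, and the 4 above 0 lie further left, with Spata31d1d at 48.8. Library size alone moves all members up by nearly the same amount, and the 14 closest below 0, none of them called, turn positive.

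The members were spread over 17 chromosomes. On chromosome 11, which carries Mlx, 4 of 7 were lower, where 20.6% of all genes tested were lower. The nearest, Spata32, lies 2116 kb from Mlx, and Tex2 and Spata20 lie 5410 and 6601 kb away. Without chromosome 11, 30 of 49 members were lower and the median was -0.22.

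Promoters were searched for the core E-box CACGTG, the sequence that MLX heterodimers and other MYC network dimers recognize, and for the cAMP response element TGACGTCA and its core TGACG, which CREM binds in spermatids. Windows from 250 bases before to 50 after the RefSeq transcript start were read on both strands, and the core also matches within the whole element. Such windows were found for 48 of the 56 members, 57 windows in all, as some genes have several starts. The E-box occurred in 6 of 57 member windows (10.5%) and in 7.15% of all 32851 windows. The whole element occurred in 1 member window (1.75%) and in 1.79% of all windows, and the core in 11 (19.3%) and in 20.8%.

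The members with an E-box were Spata16, Spata31d1a, Spata31d1b, Tex10, Tex12 and Tex36, of which 4 were lower. Members with the core were 10, of which 7 were lower and 1, Spata2, was higher. Both counts lie near the share among all 48 members with a window, of which 30 were lower. Shown are the stretches of the called members that hold 2 E-boxes (Spata16) or in both of the neighbouring paralogs (Spata31d1a and Spata31d1b), and of those with the whole element (Spata7) or its core among sperm structure genes (Spata18, Spata32 and Spata6), each read 5′ to 3′ on the strand of its gene in GRCm38, with the match in capitals.
Spata16, chr3:26637546-26637605, plus strand: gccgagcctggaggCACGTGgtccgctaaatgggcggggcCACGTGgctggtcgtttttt
Spata31d1a, chr13:59706380-59706409, minus strand: aatcccaggcacCACGTGgtcccaacacag
Spata31d1b, chr13:59712056-59712085, plus strand: agtcccaggcatCACGTGgtcccagcacag
Spata7, chr12:98628124-98628153, plus strand: tccctgtgttgTGACGTCAtaatctgcagc
Spata18, chr5:73651296-73651355, plus strand: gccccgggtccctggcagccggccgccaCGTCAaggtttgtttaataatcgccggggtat
Spata32, chr11:103218469-103218528, minus strand: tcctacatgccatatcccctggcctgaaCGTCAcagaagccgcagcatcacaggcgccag
Spata6, chr4:111719851-111719910, plus strand: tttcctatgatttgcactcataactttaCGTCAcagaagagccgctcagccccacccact

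The first E-box of Spata16 begins 71 bases and the other 45 bases before the transcript start. Those of Spata31d1a and Spata31d1b begin 200 and 216 bases before their starts, in stretches identical at 27 of 30 bases, and the stretch of Spata31d1a lies in an annotated exon of that gene. The element of Spata7 begins 7 bases before its start, and 25 of the 30 bases shown lie in an annotated exon. The cores in Spata18, Spata32 and Spata6 begin 56, 68 and 131 bases before their starts. A match describes these letters only and is neither a bound site nor a cause of a change. In this search Spata31d1d and Spata31d1c were not among the members with an E-box, but a member for which no window was found would be absent as well.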

How the data were processed

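Whole-testis RNA of 3 WT and 3 KO males was sequenced by the authors as 50-base paired reads and aligned to mm10 with TopHat, per the paper's methods and the submitters' processing notes (which also list Bowtie2 and bcl2fastq 1.8.4). The counting tool, its use of strand and its annotation are not given in the sources used here. The authors deposited raw counts per gene symbol, used as they stand, and columns of their own comparison, which were not used. The other samples of the series, from ChIP-seq, were not analysed here.

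Of 17933 rows, 2 were repeats. Counts were filtered by filterByExpr (minimum count 10), scaled by TMM and tested with edgeR 4.0.16 in R 4.3.3 (quasi-likelihood test, genotype only, two-sided), with Benjamini-Hochberg adjustment over 14640 genes and a threshold of 0.05. The SE is the log2 fold change divided by the square root of F. Levels between genes are CPM per kb of GENCODE exon. The alternatives were DESeq2 1.42.0, other scalings and filters, the pair as a block, and each library left out. The pairing comes from the titles and the littermates, and deviations of same-numbered libraries from their group means correlated at 0.145, 0.036 and 0.121 across genes, the others at 0.033 or less. Libraries of a group differed by more than sampling noise. The scripts were tested on simulated data. Promoters are those of RefSeq.

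The members, role lists, partners and markers were chosen with earlier results of these data known. Values are given for the role lists, the X-linked members, and the 5 largest decreases and increases past the threshold and of 1 direction in all pairs (5 and 1 were found). The remaining members, and the departures of single genes, were added after their values were seen. The listed genes Spata46, Spata5l1, Tex45, Brme1, Six6os1, Piwil4, Rhox5 and Adgre1 were not analysed here.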

Additional observations from a re-analysis of the deposited data

How the results depend on the processing

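The count of lower members ranged from 23 with library size alone to 36 with DESeq2 size factors in edgeR, and from 29 to 35 when each library was left out in turn; 23 of the 34 kept their call in all 14 alternatives. The count of higher members was 0 in DESeq2, 0 in DESeq2 with the replicate block and 3 with library size alone, and 0 to 1 with a library left out. The median log2 fold change was -0.0915 with library size alone and between -0.27 and -0.20 with a library left out. For the partners, whose alternatives were chosen after seeing the data, 13 were lower and 2 higher with library size alone, 18 to 23 were lower and 1 was higher with a library left out, and 21 were lower and 0 higher in DESeq2 with the replicate block. With the replicate block 32 members were lower and 1 higher in edgeR and 30 were lower in DESeq2, and the block changed no call of a member other than those given above. Directions turned with library size alone to 0.0267 for Spata17, 0.106 for Spata5, 0.0124 for Tex10, 0.0520 for Tex101, 0.124 for Tex11, 0.108 for Tex12, 0.0484 for Tex14, 0.0624 for Tex15, 0.106 for Tex16, 0.0694 for Tex19.1, 0.0111 for Tex24, 0.0598 for Tex261, 0.0184 for Tex29 and 0.0641 for Tex9, none of them called. With a library left out, values ranged from -0.0826 to 0.0574 for Tex11, from -0.0914 to 0.0928 for Tex12 and from -0.0968 to 0.0846 for Tex16, positive without KO2 and without WT1, and from -0.153 to 0.0192 for Tex19.1, positive without WT2. The causes were not tested. With 3 libraries a group, differences of members with few counts, such as Tex28, were measured with an SE of up to 0.26.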
